A study of Homo sapiens with 28 samples.

Results

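JQ1-VHL was set against DMSO in the nuclear RNA of MDA-MB-453, an established human breast cancer line with a luminal character that expresses HER2. The comparison uses 6 of the series' 28 libraries, chosen by their labels as the 3 nuclear replicates of each treatment, and covers every gene in the tables of all reads and of T>C reads. JQ1-VHL nuclei came from cells kept for 3 h in JQ1-VHL, a compound that, as its name says, joins the bromodomain inhibitor JQ1 to a VHL ligand. DMSO nuclei came from cells kept for the same time in the solvent, and both groups had 0.1 mM 4-thiouridine in the medium for the last 60 min. Both also received 10% Drosophila S2 cells before the cells were opened with digitonin and the nuclei were spun down. Where single values of other groups are given, they come from the nuclei of cells given JQ1 or IBET151-VHL and from the cytoplasm of cells given JQ1-VHL or DMSO, all treated and labelled for the same times. Doses are not given in the sources used here, and no source says that replicates were separate cultures. The p-values of the main nuclear gene tests measure the spread between libraries of a group, pooled over all 14 nuclear libraries, which may be technical. These include 2 from the nuclei of cells given IBET151, treated and labelled for the same times. Fits with the replicate number as a block leave out the IBET151 libraries. Fits on part of the libraries pool only those kept. The p-values of summed values and library shares rest on the 6 libraries alone.

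BET proteins bind acetylated histones through their bromodomains and help to bring the kinase P-TEFb, which releases paused RNA polymerase II, to genes. VHL is the substrate-binding part of a ubiquitin ligase, so a compound that holds a BET protein to VHL can mark that protein for the proteasome. In SLAM-seq, 4-thiouridine taken into new RNA is alkylated and then read as C in place of T, so reads with such changes (T>C reads) come from RNA made during labelling, while all reads also count RNA made before. Nuclear polyadenylated RNA holds transcripts that are newly finished, waiting for export or kept in the nucleus.

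The 3 JQ1-VHL libraries held 22120367, 23718994 and 22368961 reads and the 3 DMSO libraries 24048490, 27444773 and 35456271. T>C reads numbered 423662, 560835 and 538043 in JQ1-VHL nuclei, against 1928012, 1739085 and 798676 in DMSO nuclei. The T>C share was 1.92%, 2.36% and 2.41% in JQ1-VHL nuclei, against 8.02%, 6.34% and 2.25% in DMSO nuclei. DMSO replicate 3 stood apart, with a share inside the JQ1-VHL range, and the library number in its title (963) belongs to a later run of numbers than those of the other 5. The number of JQ1-VHL replicate 3 (953) also lies in a separate run, which holds no DMSO library. Runs were set here from the numbers in the titles, and no label names a run or a batch. Numbers are skipped within runs as well as between them. The first 2 runs hold the libraries numbered 927 to 949. The difference of the mean shares was -3.31 percentage points (2-sided exact permutation p = 0.3, the smallest possible with 3 against 3 libraries being 0.1), -4.95 without DMSO replicate 3 and -2.07 without DMSO replicate 1. The summed T>C value was 283813, 1062400.0 and 1195200.0 in JQ1-VHL nuclei, against 1788150.0, 3076290.0 and 1529510.0 in DMSO nuclei. It was 2.86-fold lower with no overlap (log2 difference -1.52, exact p = 0.1; -0.85 without JQ1-VHL replicate 1). The summed value of all reads was 14818500.0, 44931300.0 and 49690000.0 in JQ1-VHL nuclei, against 22304000.0, 48547400.0 and 67900700.0 in DMSO nuclei. These overlap, replicate 1 is the lowest of both groups, and the log2 difference of -0.38 (exact p = 0.6) became 0.17 without JQ1-VHL replicate 1. Between libraries of the same number the log2 differences were -0.59, -0.11 and -0.45 in all reads and -2.66, -1.53 and -0.36 in T>C reads. The authors scaled values to ERCC RNA, which was added by mass of RNA, so a value is a level per RNA mass. Fewer cells of a kind and less RNA per cell cannot be told apart. No library without 4-thiouridine was analysed here, so T>C reads from sequence variants of the line cannot be told apart from new RNA.

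The 9 epithelial and luminal markers, such as ERBB2, GATA3 and EPCAM, were present in all 6 libraries and made up 0.533% to 0.587% of each JQ1-VHL library, against 0.648% to 0.736% of each DMSO library. GATA3 was the highest of them in every DMSO library, at 54024, 99088 and 157707, against 10913, 39608 and 41684 in JQ1-VHL nuclei. Only GATA3 and FOXA1 were lower in every JQ1-VHL library. Values of the other markers, KRT8, KRT18 and EPCAM among them, overlapped between the groups. Of 13 stromal and immune markers in the table, 2 were at 0 in the 3 DMSO libraries, CD14 among them, and none was at 0 in all JQ1-VHL libraries, and their summed values were 2020.4 to 6897 in JQ1-VHL nuclei and 3191 to 7077 in DMSO nuclei. Most of each sum was COL1A1, at 1793, 6355 and 5880 in JQ1-VHL nuclei, against 2932, 6655 and 5772 in DMSO nuclei. NEAT1, a nuclear RNA, averaged 13414 in DMSO nuclei and 1463 in the cytoplasm of the same treatment, each per RNA mass of its fraction. The nuclear RNAs MALAT1, NEAT1 and FTX together made up 0.162% to 0.234% of the JQ1-VHL libraries and 0.0491% to 0.263% of the DMSO libraries, with the lowest share in DMSO replicate 3. The part of these markers in the results that follow was not tested.

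**Figure D1:**
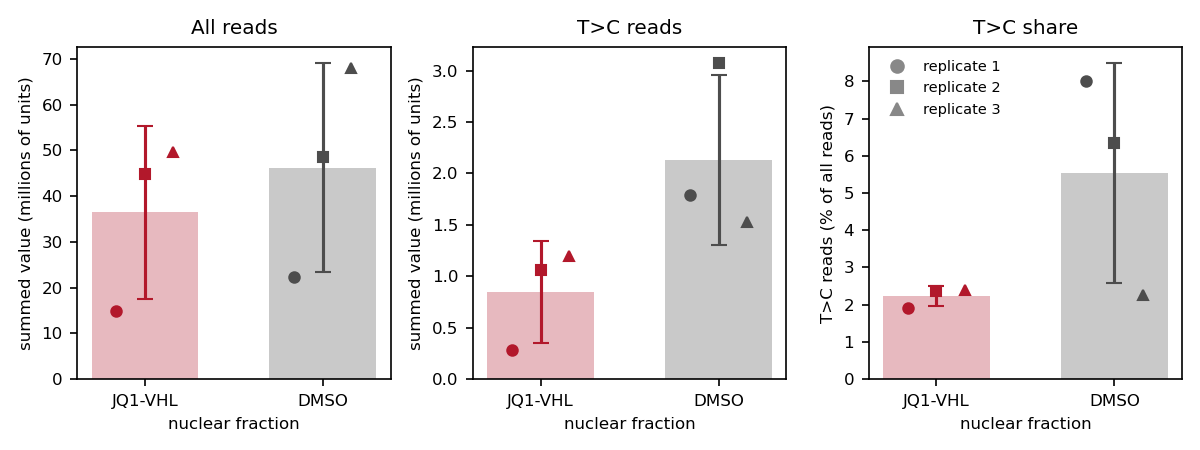
Summed value of all reads, summed value of T>C reads (both in ERCC-scaled units) and T>C share of reads (%) in the 3 JQ1-VHL and 3 DMSO nuclear libraries; points are libraries with shapes for the replicate number, bars are means and error bars SD. The summed T>C values do not overlap, while the T>C share of DMSO replicate 3 (2.25%) lies within the JQ1-VHL range of 1.92% to 2.41%.

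In all nuclear reads, known growth and signalling regulators such as MYC, SPRY1 and DUSP4 fell steeply, while EGR1 and a set of genes that were nearly silent in DMSO nuclei rose. Of 14417 genes tested on log2(value + 1), 130 were higher (0.902%) and 154 lower (1.07%) in JQ1-VHL nuclei, 1.97% in all (limma with Benjamini-Hochberg adjustment, adjusted p under 0.05). The median gene stood at -0.48 on the log2 scale, 0.06 without JQ1-VHL replicate 1, -0.79 without JQ1-VHL replicate 3, -0.88 without DMSO replicate 1 and -0.25 without DMSO replicate 3. All 3 JQ1-VHL libraries exceeded all 3 DMSO libraries in 2.12% of genes and lay below them in 9.79%. Replicate numbers were taken to pair the libraries because same-numbered libraries deviated together in these same data. Calls given here and below without mention of the block leave this pairing out. P-values with the block rest on a pairing chosen from the data they test. With the number as a block 453 genes were higher (3.14%) and 5712 lower (39.6%), although JQ1-VHL replicate 3 and DMSO replicate 3 carry library numbers from different runs. Without the block, leaving out 1 library gave 137 calls without DMSO replicate 3, 145 without JQ1-VHL replicate 3, 155 without DMSO replicate 2 and 163 without JQ1-VHL replicate 1. More genes were higher than lower without JQ1-VHL replicate 1 and without DMSO replicates 2 or 3. Relative to the median gene, after each library was rescaled by its median ratio to the other nuclear libraries, 406 genes were higher (2.82%) and 882 lower (6.12%), 8.93% in all. After that rescaling the median gene lay at 0.05. The count of calls was 636 without JQ1-VHL replicate 1, 701 without JQ1-VHL replicate 3, 708 without DMSO replicate 2 and 777 without JQ1-VHL replicate 2, against 2901 with the block. In T>C reads, 154 of 12059 genes tested were higher (1.28%) and 7290 lower (60.5%), 61.7% in all, with the median gene at -1.92. All JQ1-VHL libraries exceeded all DMSO libraries in 1.3% of genes and lay below them in 59.1%. With rescaling, 728 were higher (6.04%) and 1002 lower (8.31%), 14.3% in all, and the median gene lay at -0.29. The T>C counts were 3643 calls without DMSO replicate 2 and 3828 without JQ1-VHL replicate 1. With rescaling they were 897 without DMSO replicate 2, 927 without DMSO replicate 3, 986 without JQ1-VHL replicate 1 and 1029 without JQ1-VHL replicate 3. Of the genes tested in both tables, 136 fell in both, 65 rose in both, 7152 fell in T>C reads alone and 89 rose in T>C reads alone.

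**Figure D2:**
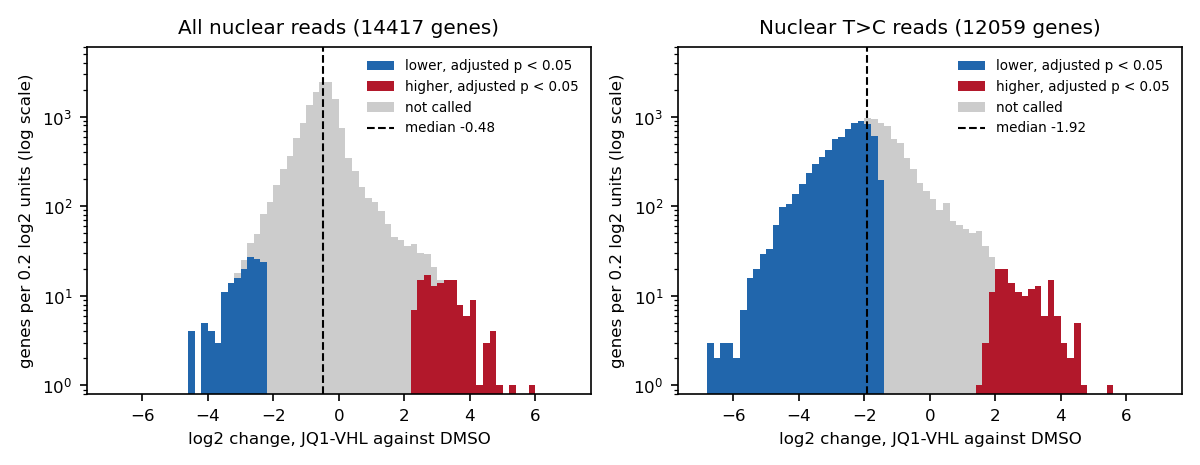
Histograms of the log2 change of every gene tested, JQ1-VHL over DMSO, in all reads (14417 genes) and T>C reads (12059 genes), with genes per bin on a log axis; blue marks genes lower and red genes higher with an adjusted p under 0.05, and the dashed line the median gene. The median lies at -0.48 in all reads and at -1.92 in T>C reads.

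Among genes that fell in all reads, several encode transcription factors and feedback inhibitors of growth factor signalling. MYC, a transcription factor of cell growth, had values of 8.04, 32.2 and 35.5 in JQ1-VHL nuclei, against 225, 483 and 959 in DMSO nuclei. Every JQ1-VHL library lay below every DMSO library, with a log2 change of -4.41 ± 0.71 (SE, limma adjusted p = 3.29e-05; -4.94 to -3.76 with 1 library left out). Its T>C values were 0.670, 9.47 and 11.1 in JQ1-VHL nuclei, against 117, 290.1 and 448 in DMSO nuclei (log2 change -5.38 ± 0.77, adjusted p = 2.28e-09). Set against the median gene, MYC changed by -3.89 in all reads (adjusted p = 0.000365) and -3.90 in T>C reads (adjusted p = 0.00353), both on the rescaled log2 scale. On that scale the median of all genes tested lay at 0.05 and -0.29. SPRY1 encodes a Sprouty protein that restrains signalling from receptor tyrosine kinases to RAS, and had 44.2, 161 and 164 in JQ1-VHL nuclei, against 757, 1603 and 2309.6 in DMSO nuclei. Its DMSO libraries were all higher than its JQ1-VHL libraries (log2 change -3.73 ± 0.66, adjusted p = 0.000193). DUSP4 and DUSP5 encode nuclear phosphatases that switch off MAP kinases. DUSP4 stood at 71.0, 205 and 239.9 in JQ1-VHL nuclei, against 1054, 1592 and 3621 in DMSO nuclei, without overlap (log2 change -3.58 ± 0.70, adjusted p = 0.000669). DUSP5 stood at 170.2, 483 and 659.8 in JQ1-VHL nuclei, against 1207, 2942 and 4052 in DMSO nuclei, also without overlap (log2 change -2.68 ± 0.73, adjusted p = 0.0285). Its call was lost at -2.11 without JQ1-VHL replicate 1, -2.54 without DMSO replicate 2, -2.86 without JQ1-VHL replicate 2 and -2.31 without DMSO replicate 3.

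Of 16 MAP kinase feedback genes, 4 fell and 1 rose in all reads, against 1.07% and 0.902% of all genes. Members of this and every later list were chosen with earlier results of these data known. A list's share beside that of all genes is therefore a description and no independent support. The list median was -1.50 beside -0.48 for all genes, and the count that fell was 2 without JQ1-VHL replicates 1 or 2 or without DMSO replicates 2 or 3. The 4 were SPRY1, DUSP4, DUSP5 and DUSP10, and PHLDA1 rose (log2 change 2.26 for PHLDA1 and -2.38 for DUSP10, both named after their values were seen). With the replicate block 11 fell and 1 rose, against 39.6% and 3.14% of all genes. Set against the median gene, 8 fell and 1 rose (6.12% and 2.82% of all genes), the falls numbering 5 without JQ1-VHL replicates 1 or 3 or without DMSO replicate 3. Among T>C reads 12 of 15 fell (7 without JQ1-VHL replicate 1), against 60.5% of all genes, with a list median of -2.49 beside -1.92. PLK2, a polo-like kinase of the stress response, had 246, 686 and 875 in JQ1-VHL nuclei, against 3163, 5250.1 and 9935 in DMSO nuclei in all reads. It did not overlap between the groups (log2 change -3.37 ± 0.74, adjusted p = 0.00338), though the call was lost at -2.82 without JQ1-VHL replicate 1 and -2.94 without DMSO replicate 3. Its relative PLK3 changed by -2.36 (adjusted p = 0.0422). That call was lost at -1.84 without JQ1-VHL replicate 1, -2.24 without DMSO replicate 2, -2.51 without JQ1-VHL replicate 2, -2.71 without JQ1-VHL replicate 3 and -2.03 without DMSO replicate 3. SOX9, a lineage transcription factor, stood at 36.8, 49.3 and 75.5 in JQ1-VHL nuclei, against 245, 465 and 643 in DMSO nuclei (log2 change -3.00 ± 0.65, adjusted p = 0.00315; -3.38 to -2.69 with 1 library left out). KLF4, another transcription factor, had 12.1, 45.5 and 62.2 in JQ1-VHL nuclei, against 116, 242 and 423 in DMSO nuclei (log2 change -2.77, adjusted p = 0.0198). It was not called at -2.08 without JQ1-VHL replicate 1, -2.72 without DMSO replicate 2 and -2.32 without DMSO replicate 3. Of 44 short-lived mRNAs, 8 fell and 0 rose in all reads, with a median of -1.33. The falls numbered 3 without DMSO replicate 2, 2 without JQ1-VHL replicate 1 or without DMSO replicate 3 and 5 without JQ1-VHL replicate 2. Set against the median gene, 20 fell and 3 rose, the falls numbering 15 to 20 with any 1 library left out. With the replicate block 29 of them fell and 3 rose.

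Other large falls in all reads included genes with low values in DMSO nuclei. LRFN2, a synaptic adhesion protein, had 0.670, 1.89 and 11.1 in JQ1-VHL nuclei, against 26.9, 152 and 163 in DMSO nuclei, with no overlap (log2 change -4.52 ± 0.80, adjusted p = 0.000181). FLRT3, a cell adhesion protein, had 3.35, 0 and 4.44 in JQ1-VHL nuclei, against 61.2, 47.8 and 78.5 in DMSO nuclei (log2 change -4.44 ± 0.77, adjusted p = 0.000141). Both were low in every JQ1-VHL library. FLRT3 overlaps MACROD2 on the opposite strand, and since the counting strand is not stated their reads cannot be told apart. MACROD2 averaged 8640.2 in JQ1-VHL nuclei and 6077 in DMSO nuclei (log2 change 0.44, not called). The zinc-finger genes ZFP37, ZNF792 and ZNF112, whose proteins bind DNA, fell as well. ZFP37 had 4.69, 7.58 and 4.44 in JQ1-VHL nuclei, against 67.7, 119 and 153 in DMSO nuclei (log2 change -4.07 ± 0.74, adjusted p = 0.00022). ZNF792 had 4.02, 22.7 and 22.2 in JQ1-VHL nuclei, against 119, 272 and 341 in DMSO nuclei (log2 change -3.99 ± 0.71, adjusted p = 0.00019). Both were called without each library in turn, whereas ZNF112 (log2 change -4.13, adjusted p = 0.000603) and MAMSTR, a coactivator of MEF2 factors (log2 change -4.01, adjusted p = 0.00172), were not called without JQ1-VHL replicate 1 (-3.37 and -3.21).

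**Figure D3:**
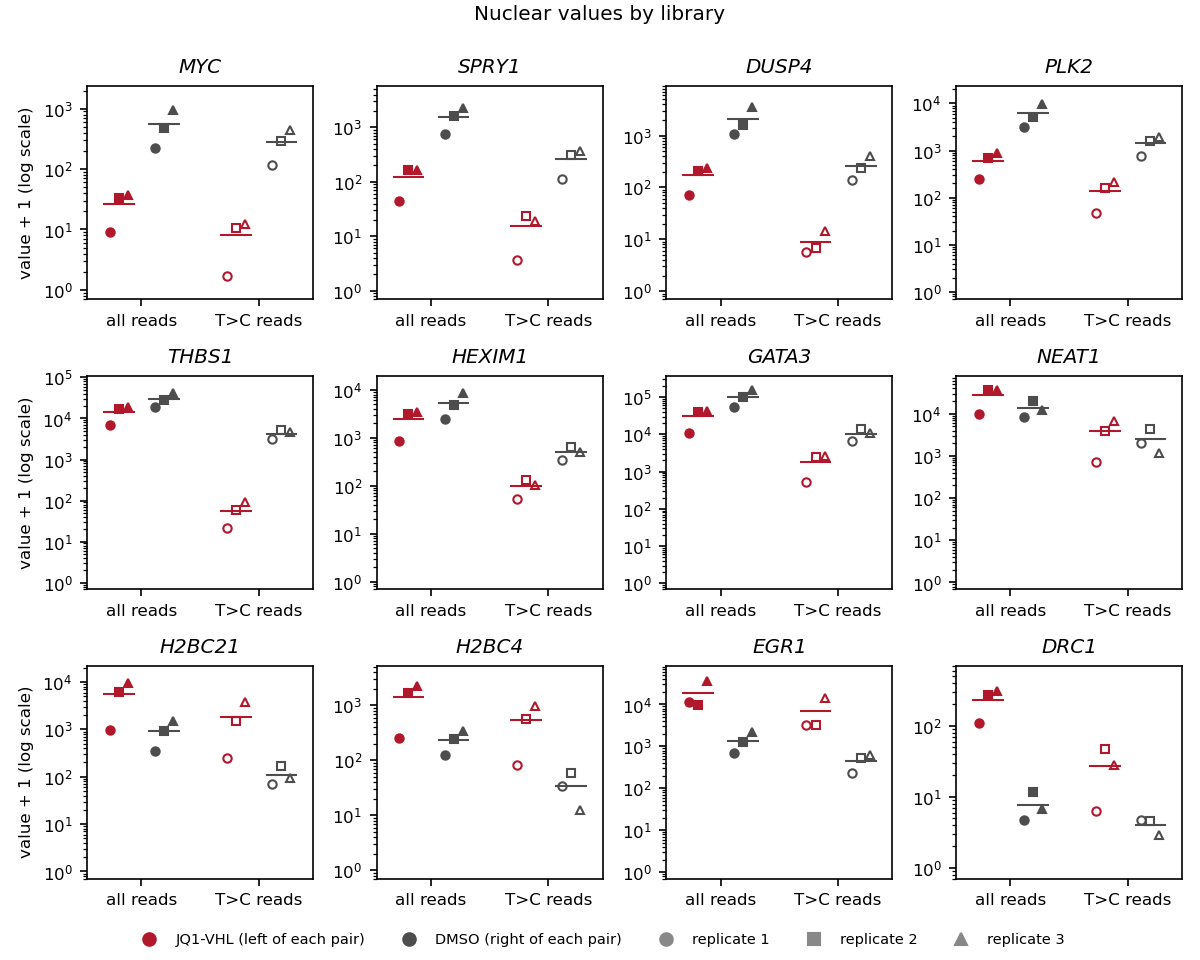
Values (ERCC-scaled units plus 1, log axis) of MYC, SPRY1, DUSP4, PLK2, THBS1, HEXIM1, GATA3, NEAT1, H2BC21, H2BC4, EGR1 and DRC1 in each nuclear library, with JQ1-VHL on the left and DMSO on the right; filled points are all reads, open points T>C reads and lines group means. MYC, SPRY1, DUSP4 and PLK2 lie lower and EGR1 and DRC1 higher in every JQ1-VHL library than in any DMSO library in all reads, while THBS1 separates far more in T>C reads than in all reads.

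EGR1 and FOS, immediate-early transcription factors that growth signals switch on quickly, rose in both tables. EGR1 had 11159, 9719.7 and 36422 in JQ1-VHL nuclei, against 690.0, 1247 and 2151 in DMSO nuclei in all reads. Among new (T>C) reads it had 3203, 3311 and 14490.1 in JQ1-VHL nuclei, against 229, 541 and 609 in DMSO nuclei. All 3 JQ1-VHL libraries exceeded all 3 DMSO libraries in both tables, JQ1-VHL replicate 3 being the highest. The log2 changes were 3.69 ± 0.79 (adjusted p = 0.0025) in all reads and 3.66 ± 0.73 (adjusted p = 1.81e-05) in T>C reads. The call in all reads was lost without JQ1-VHL replicate 3 (3.08), while in T>C reads it held without each library (2.94 to 4.03). FOS had 256, 1171 and 15014 in JQ1-VHL nuclei, against 83.5, 281 and 253 in DMSO nuclei in all reads. Its T>C values were 103, 553 and 8923 in JQ1-VHL nuclei, against 39.9, 109.7 and 130.2 in DMSO nuclei. JQ1-VHL replicate 3 was far above the other libraries of FOS, whose all-read values overlapped (256 in JQ1-VHL replicate 1 and 281 in DMSO replicate 2). The log2 changes of FOS were 3.18 ± 0.89 (adjusted p = 0.0353) and 3.25 ± 0.68 (adjusted p = 4.05e-05). Without JQ1-VHL replicate 3 they were 1.59 and 1.52, neither called. In all reads FOS was also not called without JQ1-VHL replicate 1 (4.52). The T>C share of EGR1 was 28.7%, 34.1% and 39.8% in JQ1-VHL nuclei, against 33.2%, 43.4% and 28.3% in DMSO nuclei, a difference that did not pass (adjusted p = 0.925). Of 24 immediate-early genes, 2 rose (EGR1, FOS) and 2 fell (MYC, KLF4) in all reads, against 0.902% and 1.07% of all genes, with a median of -0.04 beside -0.48. The rises numbered 1 without JQ1-VHL replicate 1 and 0 without JQ1-VHL replicate 3, and the falls 1 without JQ1-VHL replicate 1 or without DMSO replicates 2 or 3. Among T>C reads 2 of them rose and 7 fell, against 1.28% and 60.5% of all genes, with a median of -0.40 beside -1.92. The rises numbered 4 without JQ1-VHL replicate 1 and 1 without JQ1-VHL replicate 3, and the falls 4 without JQ1-VHL replicate 1. With rescaling 7 rose and 1 fell there (6.04% and 8.31% of all genes), MYC being the 1 that fell, and the rises numbered 11 without DMSO replicate 3 and 3 without JQ1-VHL replicate 3.

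The 150 bases before the EGR1 start are shown because EGR1 had the largest rise in all reads among the immediate-early genes tested and because this stretch holds repeats of the CArG box, the sequence bound by serum response factor. The sequence runs 5′ to 3′ (RefSeq, GRCh38.p14, chr5:138465329-138465478, plus strand; CArG boxes in capitals, searched by name on both strands, with no overlap between the 2 found).
EGR1: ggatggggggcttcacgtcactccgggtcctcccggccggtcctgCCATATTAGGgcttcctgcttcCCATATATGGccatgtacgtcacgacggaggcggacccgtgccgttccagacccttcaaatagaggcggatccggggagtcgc
The 2 CArG boxes lie at bases 105 to 96 and 83 to 74 before the start. Of the 19 immediate-early genes with a promoter in the RefSeq table, 2 held a CArG box (10.5%), as did 1.07% of the 9714 genes tested in T>C reads that have one and 0.769% of all 35116 promoters of this length.

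Most genes that rose in all reads were nearly silent in DMSO nuclei. The 130 risers had a median DMSO mean of 8.29, with 71 of them under 10 and 11 without a read in any DMSO library, against a median of 258 for the 154 genes that fell. Of all 14417 genes tested, 907 (6.29%) had a DMSO mean under 10 and 19 had no DMSO read. A gene entered the test with 10 in any 2 nuclear libraries, so genes without DMSO reads entered through other groups. Genes that low also had little room to fall, so the contrast with the falls was partly set in advance. DRC1, a subunit of the dynein regulatory complex of motile cilia, had 109.9, 267 and 309 in JQ1-VHL nuclei, against 3.71, 10.6 and 5.75 in DMSO nuclei, a separation with no overlap (log2 change 4.87 ± 0.66, adjusted p = 7.42e-07; 4.57 to 5.33 with 1 library left out). ROPN1L, a protein of the sperm flagellum, stood at 71.7, 197 and 164 in JQ1-VHL nuclei, against 2.78, 3.54 and 5.75 in DMSO nuclei (log2 change 4.78 ± 0.69, adjusted p = 2.46e-06). TP53AIP1, a p53-regulated apoptosis gene, stood at 156, 477 and 589 in JQ1-VHL nuclei, against 13.0, 28.3 and 9.58 in DMSO nuclei (log2 change 4.44 ± 0.65, adjusted p = 4.3e-06). Each of these was higher in every JQ1-VHL library and was called without each library in turn. G6PC2, a glucose-6-phosphatase of pancreatic islets, had 16.7, 106 and 100.0 in JQ1-VHL nuclei and 0 in the 3 DMSO libraries, at least 16.1-fold higher when DMSO is set at a floor of 3 reads per library (adjusted p = 9.07e-07). It overlaps SPC25 on the opposite strand, which averaged 1217 in JQ1-VHL nuclei and 1529 in DMSO nuclei, and the counting strand is not stated. CD14, a monocyte receptor for lipopolysaccharide, had 6.03, 22.7 and 26.7 in JQ1-VHL nuclei and 0 in DMSO nuclei (at least 4.01-fold higher), and its call was lost without JQ1-VHL replicate 1 or 3. The ratio of reads per unit was 38.6-fold (95% counting interval 12.9 to 189) for CASS4, a scaffold of focal adhesions, and 52.3-fold (95% counting interval 17.6 to 256) for DMRTA2, a transcription factor, both with few DMSO reads.

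CDKL2, a kinase related to cyclin-dependent kinases, had 105, 337 and 399.8 in JQ1-VHL nuclei, against 21.3, 17.7 and 1.92 in DMSO nuclei (log2 change 4.51, adjusted p = 9.22e-06). EPHX3, an epoxide hydrolase, had 83.7, 449 and 311 in JQ1-VHL nuclei, against 24.1, 17.7 and 1.92 in DMSO nuclei (log2 change 4.36, adjusted p = 3.33e-05). In both, DMSO replicate 3 was the lowest library and all JQ1-VHL libraries lay above DMSO. THEMIS, a signalling protein of T cells, stood at 165, 254 and 495 in JQ1-VHL nuclei, against 33.4, 44.2 and 32.6 in DMSO nuclei (log2 change 2.89, adjusted p = 0.00404; not called without JQ1-VHL replicate 3, 2.46). TEX14, a protein of germ cell bridges, stood at 308, 1192 and 935 in JQ1-VHL nuclei, against 70.5, 103 and 107 in DMSO nuclei without overlap (log2 change 2.92, adjusted p = 0.00869; not called at 2.53 without JQ1-VHL replicate 2 and 2.71 without JQ1-VHL replicate 3). NEB, the giant muscle protein nebulin, changed by 2.46 and was not called at 2.62 without DMSO replicate 2, 2.17 without JQ1-VHL replicate 2, 2.25 without JQ1-VHL replicate 3 and 2.21 without DMSO replicate 3. KLHL3, EFCAB8, WDR49 and MYH15 also rose, by 2.99, 3.21, 3.43 and 3.77 on the log2 scale, and were called without each library. In T>C reads, THEMIS had 46.2, 73.9 and 162 in JQ1-VHL nuclei, against 2.78, 1.77 and 3.83 in DMSO nuclei (log2 change 4.49, adjusted p = 1.04e-05). TEX14 had 42.2, 114 and 171 in JQ1-VHL nuclei, against 8.35, 12.4 and 15.3 in DMSO nuclei there (log2 change 2.90, adjusted p = 0.000388). DRC1 changed by 2.35 in T>C reads (adjusted p = 0.0198), a call lost at 2.44 without DMSO replicate 2, 1.74 without JQ1-VHL replicate 2 and 2.12 without JQ1-VHL replicate 3 or without DMSO replicate 3. TP53AIP1 changed by 1.91 (adjusted p = 0.0529, not called). Of the 130 risers, 35 had too few T>C reads to be tested there, and of the rest 65 rose, 29 were not called and 1 fell.

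Histone genes whose mRNA is polyadenylated stood above the median gene in JQ1-VHL nuclei. H2BC21, an H2B gene, had 993, 6088 and 9643 in JQ1-VHL nuclei, against 341, 922 and 1492 in DMSO nuclei in all reads. Among new (T>C) reads it had 251, 1478 and 3781 in JQ1-VHL nuclei, against 67.7, 165 and 91.9 in DMSO nuclei. H2BC4, another H2B gene, had 251, 1684 and 2261 in JQ1-VHL nuclei, against 125, 246 and 343 in DMSO nuclei in all reads. Its T>C values were 80.4, 574 and 962 in JQ1-VHL nuclei, against 32.5, 56.6 and 11.5 in DMSO nuclei. The T>C groups of H2BC21 and H2BC4 did not overlap, with log2 changes of 3.46 ± 0.68 (adjusted p = 1.43e-05) and 3.62 ± 0.69 (adjusted p = 8.03e-06). In all reads neither passed on the deposited scale (log2 change 2.32, adjusted p = 0.136, and 2.16, adjusted p = 0.121), while both rose with the replicate block (adjusted p = 1.33e-09 and 8.86e-08). Set against the median gene they rose by 2.86 ± 0.38 (adjusted p = 0.000606) and 2.70 ± 0.29 (adjusted p = 0.000162). H1-2, a linker histone gene, had 156, 390.2 and 2470.2 in JQ1-VHL nuclei, against 12.1, 54.8 and 105 in DMSO nuclei in T>C reads, all JQ1-VHL libraries being higher (log2 change 3.65 ± 0.68, adjusted p = 5.44e-06). Its all-read values were 1950.1, 6105 and 13546 in JQ1-VHL nuclei, against 876, 3336 and 7984 in DMSO nuclei, and overlapped. Of 20 such genes tested, 8 rose and 1 fell in T>C reads, against 1.28% and 60.5% of all genes, with a list median of 1.13 beside -1.92. This list too was chosen with earlier results of these data known, so the contrast is no independent support. The rises numbered 5 without DMSO replicate 1 and 4 without JQ1-VHL replicate 3. The 8 were H1-2, H2BC4, H2BC21, H2AC18 and, named after their values were seen, H2AC6, H2BC5, H2BC15 and H4C8 (log2 changes 2.10, 2.41, 1.64 and 2.12). The 1 that fell was MACROH2A2, a variant histone with 0 in the 3 JQ1-VHL libraries and 8.35, 15.9 and 1.92 in DMSO nuclei. With rescaling 7 rose and 0 fell in all reads (4 without JQ1-VHL replicate 3 rose), against 2.82% and 6.12% of all genes. In rescaled T>C reads 13 rose and 1 fell (12 to 14 with any 1 library left out), against 6.04% and 8.31%. With the replicate block 8 rose and 0 fell in all reads, against 3.14% and 39.6%. Within the first 2 runs of library numbers, which leave out both replicates 3, 8 rose and 0 fell in all reads. In T>C reads 8 rose and 5 fell there. Of all genes, 283 of 14417 rose and 4768 fell there in all reads, and 128 of 12059 rose and 10178 fell in T>C reads. Histone genes are near-identical copies of each other, so reads may be shared between them and single values are uncertain.

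The 150 bases before the start of H2BC4, H2BC21 and H1-2 are shown because these 3 genes had the largest T>C rises among the histone genes. They run 5′ to 3′, and capitals mark the CCAAT box (CCAAT), the TATA box (TATAAA) and the octamer (ATTTGCAT), searched on both strands with no overlaps between motifs in these 3 (RefSeq, GRCh38.p14; H2BC4 chr6:26123927-26124076, minus strand; H2BC21 chr1:149886683-149886832, minus strand; H1-2 chr6:26056471-26056620, minus strand).
H2BC4: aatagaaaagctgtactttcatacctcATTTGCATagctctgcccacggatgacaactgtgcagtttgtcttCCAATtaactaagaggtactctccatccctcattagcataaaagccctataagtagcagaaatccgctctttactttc
H2BC21: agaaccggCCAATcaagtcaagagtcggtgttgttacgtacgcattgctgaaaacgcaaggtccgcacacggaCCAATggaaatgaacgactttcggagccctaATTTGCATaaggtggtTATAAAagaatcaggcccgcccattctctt
H1-2: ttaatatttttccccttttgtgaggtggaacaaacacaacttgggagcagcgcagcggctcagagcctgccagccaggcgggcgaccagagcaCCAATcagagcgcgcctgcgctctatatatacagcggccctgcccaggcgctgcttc
Of the 18 tested histone genes with a promoter in the table, 15 held a CCAAT box (83.3%), 9 a TATA box (50%) and 5 an octamer (27.8%). Among the genes tested in T>C reads that have a promoter there (9714), the shares were 33.9%, 4.89% and 1.09%, and among all 35116 promoters 23.5%, 6.71% and 0.988%. H2BC4 lies 246 bases from H2AC6, which is read from the opposite strand, so the windows of the pair share 55 bases. A match describes these letters and is not a measured binding site.

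Of 16 genes known to rise under BET inhibitors, 6 rose relative to the median gene in all reads and 10 were not called. DHRS2, a short-chain dehydrogenase, stood at 172, 566 and 658 in JQ1-VHL nuclei, against 45.4, 168 and 283 in DMSO nuclei in all reads (relative log2 change 2.16 ± 0.45, adjusted p = 0.00908). Its T>C values were 20.1, 72 and 46.6 in JQ1-VHL nuclei, against 0.927, 1.77 and 5.75 in DMSO nuclei (log2 change 3.66 ± 0.80, adjusted p = 9.57e-05). SERPINI1, the protease inhibitor neuroserpin, rose by 1.88 relative to the median gene (adjusted p = 0.00443). On the deposited scale none of the 16 genes on the BET response list was called in all reads (limma; 5 at an unadjusted p under 0.05; median 0.24). With the replicate block 7 rose and 2 fell, against 3.14% and 39.6% of all genes. Relative to the median gene 6 rose and 0 fell (6 to 8 with any 1 library left out), against 2.82% and 6.12% of all genes. Among T>C reads 6 of 14 rose and 1 fell, against 1.28% and 60.5% of all genes, with a median of 0.98 beside -1.92 (5 to 7 with any 1 library left out rose). There 9 rose and 0 fell relative to the median gene, against 6.04% and 8.31% of all genes. Most of those that rose are histone genes held by both lists. The 6 in T>C reads were DHRS2, H1-2, H2BC21, H2BC4 and, named after their values were seen, H2BC5 and H2AC6. HEXIM1, whose protein holds P-TEFb inactive and which is often used as a sign of BET inhibition, had 52.9, 133 and 102 in JQ1-VHL nuclei, against 345, 647 and 506 in DMSO nuclei in T>C reads. It was the 1 gene of the list that fell there, with no overlap (log2 change -2.42 ± 0.68, adjusted p = 0.00184; -2.70 to -2.04 with 1 library left out), while in all reads it changed by -1.15 (adjusted p = 0.736, and 3.01e-05 with the replicate block). BRD2, a BET protein gene, had 354, 1639 and 1502 in JQ1-VHL nuclei, against 1585, 3859.8 and 1463 in DMSO nuclei in T>C reads and did not pass (log2 change -1.12, adjusted p = 0.146).

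Most luminal lineage genes fell in new RNA, as did most genes tested, and a few luminal transcription factors, FOXA1 and GATA3 among them, also fell relative to the median gene in all reads. FOXA1, a pioneer factor of luminal cells, had 866, 3527 and 4074 in JQ1-VHL nuclei, against 5941, 12596 and 23425 in DMSO nuclei in all reads. Among new (T>C) reads it had 64.3, 292 and 338 in JQ1-VHL nuclei, against 1207, 2712 and 2063 in DMSO nuclei. JQ1-VHL was lower in every library of both tables, with log2 changes of -3.34 ± 0.68 in T>C reads (adjusted p = 2.45e-05) and -1.84 ± 0.25 relative to the median gene in all reads (adjusted p = 0.00062). GATA3, its partner in luminal cells, had 10913, 39608 and 41684 in JQ1-VHL nuclei, against 54024, 99088 and 157707 in DMSO nuclei in all reads. Its T>C values were 539.9, 2408 and 2652 in JQ1-VHL nuclei, against 6588, 14039.9 and 10623 in DMSO nuclei. Neither table overlapped between the groups. Its log2 change was -2.72 ± 0.74 in T>C reads (adjusted p = 0.00145) and, relative to the median gene, -1.31 ± 0.19 in all reads (adjusted p = 0.00112). On the deposited scale all reads did not pass for FOXA1 (-2.38, adjusted p = 0.108) or GATA3 (-1.85, adjusted p = 0.272), while both fell with the replicate block (adjusted p = 7.96e-11 and 4.86e-09). FOXA1 overlaps TTC6 on the opposite strand, which averaged 2655 in JQ1-VHL nuclei and 3458 in DMSO nuclei. ERBB2, the HER2 gene, had 20096, 51404 and 65773 in JQ1-VHL nuclei, against 33307, 64669.7 and 85394 in DMSO nuclei in all reads, close to the median gene (relative log2 change 0.06). It fell by 2.59 on the log2 scale in T>C reads (adjusted p = 0.000951). None of 32 luminal and HER2 genes was called in all reads (limma; 4 at an unadjusted p under 0.05; median -0.52). With the replicate block 18 fell (39.6% of all genes did), and 5 fell relative to the median gene (5 with any 1 library left out), against 6.12% of all genes. Those were FOXA1, GATA3, the ETS factor EHF (-1.13) and, named after their values were seen, TFAP2A (-0.90) and TFAP2C (-1.07). Among T>C reads 25 of 31 fell, against 60.5% of all genes, with a median of -2.56 beside -1.92 (19 to 27 with any 1 library left out). With rescaling 13 fell (8 without JQ1-VHL replicate 3 or without DMSO replicate 2), against 8.31% of all genes, among them TFAP2B (log2 change -5.57), ANKRD30A (-4.44) and KRT7 (-4.52).

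The genes named for the largest falls of new RNA or of its share did not pass in all reads on the deposited scale. THBS1, the matrix protein thrombospondin-1, had T>C values of 20.8, 56.8 and 91.1 in JQ1-VHL nuclei, against 3138, 5102 and 4588 in DMSO nuclei. In all reads it had 6798, 17407 and 18975 in JQ1-VHL nuclei, against 18515, 28276 and 41668 in DMSO nuclei. The T>C values were lower in every JQ1-VHL library (log2 change -6.42 ± 0.68, adjusted p = 3.05e-17), while all reads did not pass (-1.09, adjusted p = 0.753). IGFBP5, a secreted binder of insulin-like growth factors, had T>C values of 14.7, 24.6 and 15.5 in JQ1-VHL nuclei, against 1173, 1850.3 and 2294 in DMSO nuclei. Its all-read values were 55062, 126211 and 164420.0 in JQ1-VHL nuclei, against 64297, 111173 and 308858 in DMSO nuclei. Its T>C change was -6.50 ± 0.74 (adjusted p = 7.85e-15), against -0.32 in all reads, where the groups overlapped. TNC, the matrix protein tenascin C, had 1.34, 15.2 and 6.66 in JQ1-VHL nuclei, against 692, 485 and 239 in DMSO nuclei in T>C reads (log2 change -6.03 ± 0.83, adjusted p = 4.1e-10) and changed by -0.09 in all reads. SLC1A7, a glutamate transporter, had 0.670, 1.89 and 0 in JQ1-VHL nuclei, against 304, 561 and 30.6 in DMSO nuclei in T>C reads. That is 377-fold lower (95% counting interval 104 to 3120.0) by reads per unit, beside a log2 change of -0.04 in all reads. B3GNT5, a glycosyltransferase of glycolipids, had no T>C read in JQ1-VHL nuclei, against 89.0, 207 and 63.2 in DMSO nuclei (at least 25-fold lower). KCNK2, a potassium channel, also had none in JQ1-VHL nuclei, against 86.3, 76.1 and 88.1 in DMSO nuclei (at least 17.4-fold lower). IL1R1, the interleukin 1 receptor, had 3.35, 0 and 2.22 in JQ1-VHL nuclei, against 184, 377 and 220.2 in DMSO nuclei (log2 change -6.69, adjusted p = 1.02e-10). SLITRK4, a membrane protein of neurons, had 0, 0 and 2.22 in JQ1-VHL nuclei, against 103, 203 and 65.1 in DMSO nuclei in T>C reads (297-fold lower by reads per unit, 95% counting interval 52.8 to 11761). KIF5C, a kinesin motor, had 0.670, 1.89 and 2.22 in JQ1-VHL nuclei, against 200.3, 292 and 107 in DMSO nuclei there (166-fold lower by reads per unit, 95% counting interval 56.5 to 809). CCND1, cyclin D1, named from the list of short-lived mRNAs, had 10.7, 36.0 and 26.7 in JQ1-VHL nuclei, against 249, 642 and 349 in DMSO nuclei in T>C reads (log2 change -4.06, adjusted p = 3.12e-06). The calls of all these genes in T>C reads held without each library in turn. In all reads THBS1, IL1R1, B3GNT5, KIF5C and SLITRK4 also fell once the replicate number was a block (adjusted p = 1.87e-05, 0.00186, 9.38e-06, 0.000213 and 7.38e-05), while IGFBP5, TNC, SLC1A7, KCNK2 and CCND1 did not pass (adjusted p = 0.208, 0.768, 0.909, 0.0852 and 0.0964). THBS1, TNC, B3GNT5 and CCND1 each overlap another gene on the opposite strand, FSIP1, DELEC1, MCF2L2 and LTO1. Their all-read means in JQ1-VHL nuclei were 102, 14.7, 60.0 and 1464, against 217, 8.83, 119 and 1266 in DMSO nuclei.

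The series concerns mRNA export factors and nuclear speckles, and genes of these machineries and of elongation were counted in T>C reads, where 60.5% of all genes fell with a median of -1.92. Of P-TEFb and elongation genes 21 of 31 fell (median -1.95; 11 without DMSO replicate 2 and 10 without JQ1-VHL replicate 1). ELL2, a subunit of the super elongation complex, stood at 14.1, 47.4 and 28.9 in JQ1-VHL nuclei, against 321, 308 and 260.4 in DMSO nuclei in T>C reads (log2 change -3.41 ± 0.71, adjusted p = 4.07e-05) and lay below the median gene in all reads (relative log2 change -1.22, adjusted p = 0.00301). MEPCE, which caps the 7SK RNA that holds P-TEFb, was lower as well, by -1.10 relative to the median gene in all reads (adjusted p = 0.00173) and -2.90 in T>C reads (adjusted p = 0.000671). Both kept those calls without each library. Of mRNA export factors 17 of 35 fell (median -1.58; 10 without DMSO replicate 1, 2 without DMSO replicate 2 and 3 without JQ1-VHL replicate 1). NXT2, a partner of the export receptor NXF1, fell by 3.20 on the log2 scale (adjusted p = 0.00207), and ZC3H14, a poly(A)-binding protein, by 2.26 (adjusted p = 0.00418). NXF1 itself rose relative to the median gene, by 0.82 in all reads (adjusted p = 0.0099) and 1.69 in T>C reads (adjusted p = 0.00289), and is named after its values were seen. Of speckle and SR protein genes 18 of 36 fell (median -1.44; 3 without DMSO replicate 2 and 4 without JQ1-VHL replicate 1). SRSF1, a splicing factor, had 9.38, 62.5 and 24.4 in JQ1-VHL nuclei, against 133, 361 and 105 in DMSO nuclei (log2 change -2.75, adjusted p = 0.00173) and SRSF9 changed by -2.61 (adjusted p = 0.00257), both called without each library. SRSF6 (log2 change -2.01, adjusted p = 0.0104) was not called at -1.33 without JQ1-VHL replicate 1 and -1.52 without DMSO replicate 2. After rescaling of T>C reads, 2 elongation, 4 export and 4 speckle genes rose and 4, 0 and 0 fell, against 6.04% and 8.31% of all genes. There 18 of 31, 28 of 35 and 30 of 36 lay above the median of all genes tested. In all reads 0 of 32 elongation, 35 export and 36 speckle genes were called on the deposited scale (medians -0.63, -0.42 and -0.32), with 3, 0 and 0 at an unadjusted p under 0.05 (limma). With the replicate block 18, 12 and 9 fell and 0, 0 and 1 rose, against 39.6% and 3.14% of all genes.

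NEAT1, the RNA that builds paraspeckles, had 9617, 35725 and 36173 in JQ1-VHL nuclei, against 8234, 19805 and 12205 in DMSO nuclei in all reads. Among new (T>C) reads it had 701, 3881 and 6902 in JQ1-VHL nuclei, against 1991, 4364 and 1189 in DMSO nuclei. The all-read values overlapped by 1 library, and relative to the median gene NEAT1 rose by 1.42 ± 0.29 in all reads (adjusted p = 0.00805; 1.15 to 1.64 with 1 library left out) and 2.05 ± 0.39 in T>C reads (adjusted p = 0.00313). On the deposited scale its T>C change was 0.29 and not called, and within the first 2 runs of library numbers it was -0.84 and called. MALAT1, a speckle-associated RNA, had 167, 1301 and 3656 in JQ1-VHL nuclei, against 986, 1619 and 381 in DMSO nuclei in T>C reads, which overlapped (log2 change 0.13, adjusted p = 0.866). With rescaling it rose by 1.89 (adjusted p = 0.0363), a call lost at 2.06 without DMSO replicate 1, 2.02 without DMSO replicate 2, 2.00 without JQ1-VHL replicate 2, 1.21 without JQ1-VHL replicate 3 and 1.60 without DMSO replicate 3. Both RNAs were highest in JQ1-VHL replicate 3 and lowest among DMSO libraries in DMSO replicate 3 in T>C reads.

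Most genes that rose in T>C reads had low T>C values in DMSO nuclei, the 154 having a median DMSO mean of 1.53, 130 of them a mean under 10 and 36 no T>C read in any DMSO library. Of all 12059 genes tested there, 1634 (13.55%) had a DMSO mean under 10 and 70 had no DMSO T>C read. A gene entered with 5 in any 2 nuclear libraries, so genes without DMSO T>C reads entered through other groups and the low values partly follow from that rule. CCN3, a secreted matricellular protein, had 22.1, 49.3 and 88.9 in JQ1-VHL nuclei and 0 in the 3 DMSO libraries (at least 11.6-fold higher). Its all-read values were 131, 343 and 309 in JQ1-VHL nuclei, against 13.9, 61.9 and 130.2 in DMSO nuclei. CPE, the prohormone-processing carboxypeptidase E, had 30.8, 83.3 and 131 in JQ1-VHL nuclei, against 4.64, 3.54 and 0 in DMSO nuclei in T>C reads (log2 change 4.59 ± 0.89, adjusted p = 1.15e-05). Its all-read values were 267, 568 and 829 in JQ1-VHL nuclei, against 88.1, 139.7 and 144 in DMSO nuclei. Neither passed in all reads on the deposited scale (adjusted p = 0.0513 and 0.0788), but both rose with the replicate block (adjusted p = 1.22e-05 and 5.09e-07) and relative to the median gene (2.82, adjusted p = 0.00283, and 2.58, adjusted p = 0.00146). NEB, WDR49 and MYH15 rose by 4.57, 4.44 and 4.36 on the log2 scale in T>C reads. NEB and WDR49 overlap RIF1 and SERPINI2, which averaged 5745 and 35.5 in all reads of JQ1-VHL nuclei, against 8937 and 8.29 in DMSO nuclei. The T>C calls of CCN3, CPE, NEB, WDR49, MYH15 and THEMIS held without each library.

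The T>C share of a gene's own reads, its new reads over all its reads in the same library, needs no scaling for depth or to ERCC RNA. The share of a gene still moves with the T>C share of its whole library, which ran from 2.25% to 8.02% in DMSO nuclei. It was not tested relative to the median gene. It was higher for 16 (0.151%) and lower for 2709 (25.6%) of 10578 genes tested, 25.8% in all, with the median gene at -1.48 (limma on log2 of T>C over other reads, 0.5 added to each). All JQ1-VHL libraries exceeded all DMSO libraries in 0.548% of genes and lay below them in 44.5%. This count moved with single libraries, to 364 without DMSO replicate 2, 381 without DMSO replicate 1, 685 without JQ1-VHL replicate 1, 1103 without JQ1-VHL replicate 3, 1812 without JQ1-VHL replicate 2 and 6946 without DMSO replicate 3. The share of THBS1 was 0.306%, 0.326% and 0.480% in JQ1-VHL nuclei, against 16.9%, 18% and 11% in DMSO nuclei (log2 change -5.58 ± 0.49, adjusted p = 1.26e-07). IGFBP5 had 0.0268%, 0.0195% and 0.00946% in JQ1-VHL nuclei, against 1.82%, 1.66% and 0.743% in DMSO nuclei (-6.23 ± 0.59, adjusted p = 2.94e-07). TNC had 0.0393%, 0.201% and 0.0454% in JQ1-VHL nuclei, against 10.7%, 7.09% and 2.33% in DMSO nuclei (-6.19 ± 0.78, adjusted p = 5.49e-05). In these 3 genes even DMSO replicate 3, low in most genes, lay far above all JQ1-VHL libraries, and the calls held without each library. CCND1 had 0.207%, 0.175% and 0.107% in JQ1-VHL nuclei, against 4.02%, 2.73% and 0.870% in DMSO nuclei (-3.75, adjusted p = 0.00166), also without overlap and called without each library. The share of MYC was 8.33%, 29.4% and 31.2% in JQ1-VHL nuclei, against 51.9%, 60.1% and 46.7% in DMSO nuclei (-1.90, adjusted p = 0.0363), a call lost at -1.93 without DMSO replicate 1, -1.29 without JQ1-VHL replicate 1, -1.69 without DMSO replicate 2 and -2.23 without JQ1-VHL replicate 3. ERBB2 had 0.280%, 0.313% and 0.294% in JQ1-VHL nuclei, against 2.40%, 2.00% and 0.440% in DMSO nuclei (-2.13, adjusted p = 0.0164), lost at -1.68 without DMSO replicate 1, -2.09 without JQ1-VHL replicate 1, -1.81 without DMSO replicate 2 and -2.13 without JQ1-VHL replicate 3.

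The share of PLK2 was 18.8%, 23.2% and 24.4% in JQ1-VHL nuclei, against 24.5%, 29.6% and 19.4% in DMSO nuclei, with overlapping groups (-0.18, adjusted p = 0.742), although its level fell in both tables. FOS, at 40.3%, 47.2% and 59.4% in JQ1-VHL nuclei, against 47.8%, 39.0% and 51.5% in DMSO nuclei, overlapped as well (0.17, adjusted p = 0.736). So did TEX14, at 13.7%, 9.54% and 18.3% in JQ1-VHL nuclei, against 11.8%, 12.1% and 14.3% in DMSO nuclei (0.03, adjusted p = 0.963). GATA3 and HEXIM1 did not pass at -0.95 and -1.38 (adjusted p = 0.0706 and 0.0581). H1-2 had a higher share under JQ1-VHL, 8.00%, 6.39% and 18.2% in JQ1-VHL nuclei, against 1.38%, 1.64% and 1.32% in DMSO nuclei (2.88 ± 0.54, adjusted p = 0.00147; 2.37 to 3.23 with 1 library left out). H2BC21 had 25.2%, 24.3% and 39.2% in JQ1-VHL nuclei, against 19.8%, 17.9% and 6.16% in DMSO nuclei (1.43, adjusted p = 0.055). H2BC4 had 32.0%, 34.1% and 42.5% in JQ1-VHL nuclei, against 25.9%, 23.0% and 3.35% in DMSO nuclei (1.83, adjusted p = 0.0617). Both lay higher in every JQ1-VHL library but did not pass. CCN3 had 16.8%, 14.4% and 28.8% in JQ1-VHL nuclei, against 0 T>C reads in DMSO nuclei (adjusted p = 0.00345), and was called without each library. DHRS2 had 11.7%, 12.7% and 7.09% in JQ1-VHL nuclei, against 2.04%, 1.05% and 2.03% in DMSO nuclei (2.34, adjusted p = 0.0254), a call lost at 2.56 without DMSO replicate 1, 2.23 without JQ1-VHL replicate 1, 2.08 without DMSO replicate 2 and 2.17 without JQ1-VHL replicate 2. The luminal list had 14 of 29 genes with a lower share, against 25.6% of all genes (7 without JQ1-VHL replicate 1 or without DMSO replicate 1, 6 without DMSO replicate 2 and 23 without DMSO replicate 3). The ribosomal protein list had 3 of 75, also against 25.6% (0 without JQ1-VHL replicates 1 or 2 or without DMSO replicates 1 or 2, 40 without DMSO replicate 3 and 1 without JQ1-VHL replicate 3).

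**Figure D4:**
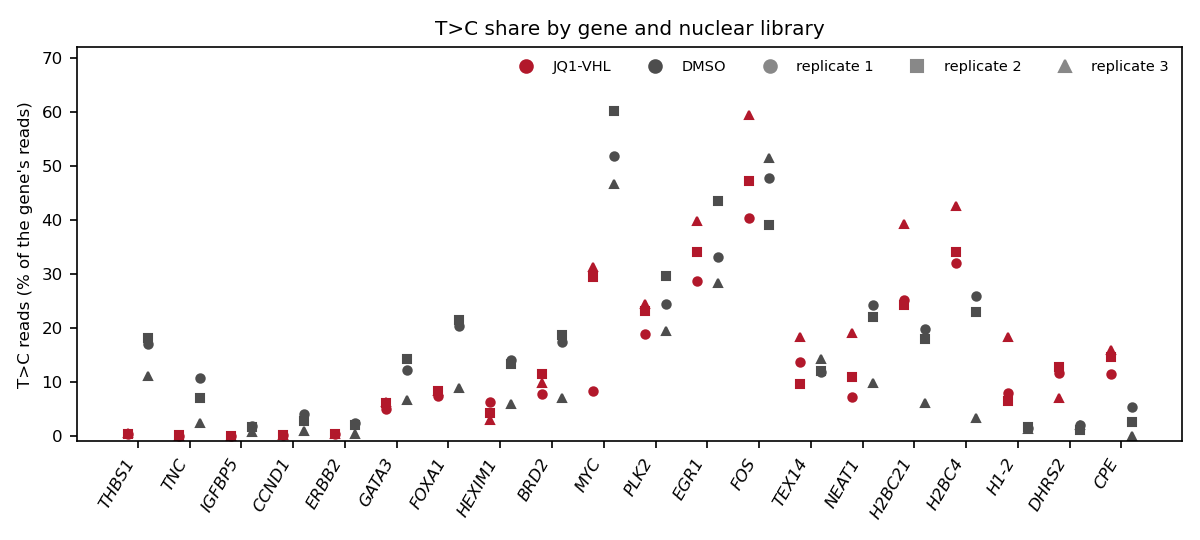
T>C share of a gene's reads (%, linear axis) in each nuclear library for 20 named genes, JQ1-VHL in red left of DMSO in grey; each point is a library and its shape the replicate. THBS1, TNC, IGFBP5 and CCND1 separate fully between the groups and are lower in JQ1-VHL, EGR1, FOS, PLK2 and TEX14 overlap, and H1-2, DHRS2 and CPE are higher in JQ1-VHL.

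In T>C reads 60.5% of all genes fell with a median of -1.92, and with rescaling 6.04% rose and 8.31% fell. All reads had 0.902% of genes higher and 1.07% lower, or 3.14% and 39.6% with the replicate block. From the list of ribosome biogenesis genes and MYC targets, 25 of 30 fell (median -2.23; 10 without DMSO replicate 2 and 14 without JQ1-VHL replicate 1) in T>C reads. With rescaling 1 rose (0 without JQ1-VHL replicates 1, 2 or 3 or without DMSO replicates 2 or 3) and 2 fell (1 without JQ1-VHL replicate 3 or without DMSO replicates 2 or 3). Among those that fell without it were GAR1 (-4.06), a protein of small nucleolar particles, SRM (-3.22), spermidine synthase, and RRS1 (-3.54), a ribosome assembly factor. In all reads MYBBP1A, a nucleolar MYB-binding protein, was the 1 of 31 that fell (-2.63, adjusted p = 0.0366), a call lost at -2.34 without JQ1-VHL replicate 1, -2.15 without DMSO replicate 2 and -2.47 without JQ1-VHL replicate 3. Of ribosomal protein genes 8 of 77 fell (median -0.96; 13 without DMSO replicate 1, 0 without JQ1-VHL replicate 1 or without DMSO replicate 2, 3 without DMSO replicate 3 and 16 without JQ1-VHL replicate 3) in T>C reads. With rescaling 22 rose and 0 fell (9 without DMSO replicate 1, 12 without DMSO replicate 2, 8 without JQ1-VHL replicate 1 and 14 without JQ1-VHL replicate 3). None of 78 was called in all reads (limma; 0 at an unadjusted p under 0.05; 3 fell with the replicate block). Of p53 targets 18 of 25 fell (median -2.17; 10 without DMSO replicate 2 and 11 without JQ1-VHL replicate 1) in T>C reads. With rescaling 2 rose (1 without JQ1-VHL replicates 1 or 3 or without DMSO replicates 1, 2 or 3) and 2 fell (0 without JQ1-VHL replicate 2 or without DMSO replicate 3 and 1 without JQ1-VHL replicate 1). BBC3, the cell death gene PUMA, changed by -2.89 ± 0.72 there (adjusted p = 0.000537), and GDF15, a stress-induced cytokine, by -5.19 ± 0.71 (adjusted p = 4.04e-10). In all reads TP53AIP1 was the 1 of 26 p53 targets that rose and PLK2, PLK3 and GADD45A fell (GADD45A -2.35, named after its values were seen). The falls numbered 5 without DMSO replicate 1, 0 without JQ1-VHL replicate 1 or without DMSO replicate 3 and 1 without JQ1-VHL replicate 3. BMF, a pro-death BCL2 relative, was the 1 of 16 BCL2 family genes that fell in all reads (-2.51, adjusted p = 0.0352). It was not called at -1.73 without JQ1-VHL replicate 1, -2.31 without DMSO replicate 2, -2.79 without JQ1-VHL replicate 3 and -2.21 without DMSO replicate 3. Among T>C reads 7 of 14 fell (median -1.99; 4 without DMSO replicate 2).

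Of all genes tested in T>C reads 60.5% fell, with a median of -1.92. Rescaled T>C reads had 6.04% of genes higher and 8.31% lower, and all reads 0.902% and 1.07%. Among cell division genes 13 of 35 fell (median -1.18; 1 without DMSO replicate 2 and 2 without JQ1-VHL replicate 1) in T>C reads. With rescaling 5 rose (1 without JQ1-VHL replicate 3 or without DMSO replicate 3 and 3 without JQ1-VHL replicates 1 or 2) and 1 fell (1 with any 1 library left out). FOXM1, a transcription factor of mitosis, was the 1 of 35 that fell in all reads (-2.57, adjusted p = 0.0414), and that call was lost at -2.60 without DMSO replicate 1, -1.91 without JQ1-VHL replicate 1, -1.99 without DMSO replicate 2 and -2.77 without JQ1-VHL replicate 3. FOXM1 overlaps ITFG2 and RHNO1 on the opposite strand, which averaged 1236 and 1171 in JQ1-VHL nuclei and 1316 and 1779 in DMSO nuclei. Of hypoxia and VHL targets 14 of 22 fell (median -2.30; 8 without JQ1-VHL replicate 1 or without DMSO replicate 2) in T>C reads and 0 rose, a share close to that of all genes. With rescaling 1 rose (0 without JQ1-VHL replicates 1, 2 or 3 or without DMSO replicates 1 or 3) and 5 fell (3 without JQ1-VHL replicate 1 or without DMSO replicates 2 or 3). Those that fell on the deposited scale include the glycolysis gene HK2 (-4.41), the hydroxylase EGLN3 (-4.02) and the carbonic anhydrase CA12 (-3.68). Heat shock genes fell in T>C reads in 5 of 18 (median -1.06; 3 without DMSO replicate 2, 2 without JQ1-VHL replicate 1 and 8 without JQ1-VHL replicate 3), with the cochaperone BAG3 at -2.56. Of mRNAs translated at the endoplasmic reticulum 24 of 39 fell (median -1.81; 9 without DMSO replicate 2 and 12 without JQ1-VHL replicate 1), with the sodium pump subunit ATP1B1 at -4.32, the tetraspanin CD63 at -2.84 and the protease CTSD at -3.29. Of snoRNA host transcripts 4 of 11 fell (median -1.19; 1 without DMSO replicate 2 and 2 without JQ1-VHL replicate 1 or without DMSO replicate 3), and of nuclear-retained noncoding RNAs 2 of 5 fell (median -1.48; 1 without JQ1-VHL replicate 1 or without DMSO replicates 1 or 2). Short-lived mRNAs gave 26 of 44 falls (median -1.97; 16 without JQ1-VHL replicate 1). Of the 8 stromal and immune markers tested, CD14 was the 1 called in all reads. With genes in 5 equal groups by length, the median T>C change was -2.10 in the group of shortest genes and -1.66 in that of the longest, beside -0.51 and -0.40 in all reads. These genes share libraries.

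**Figure D5:**
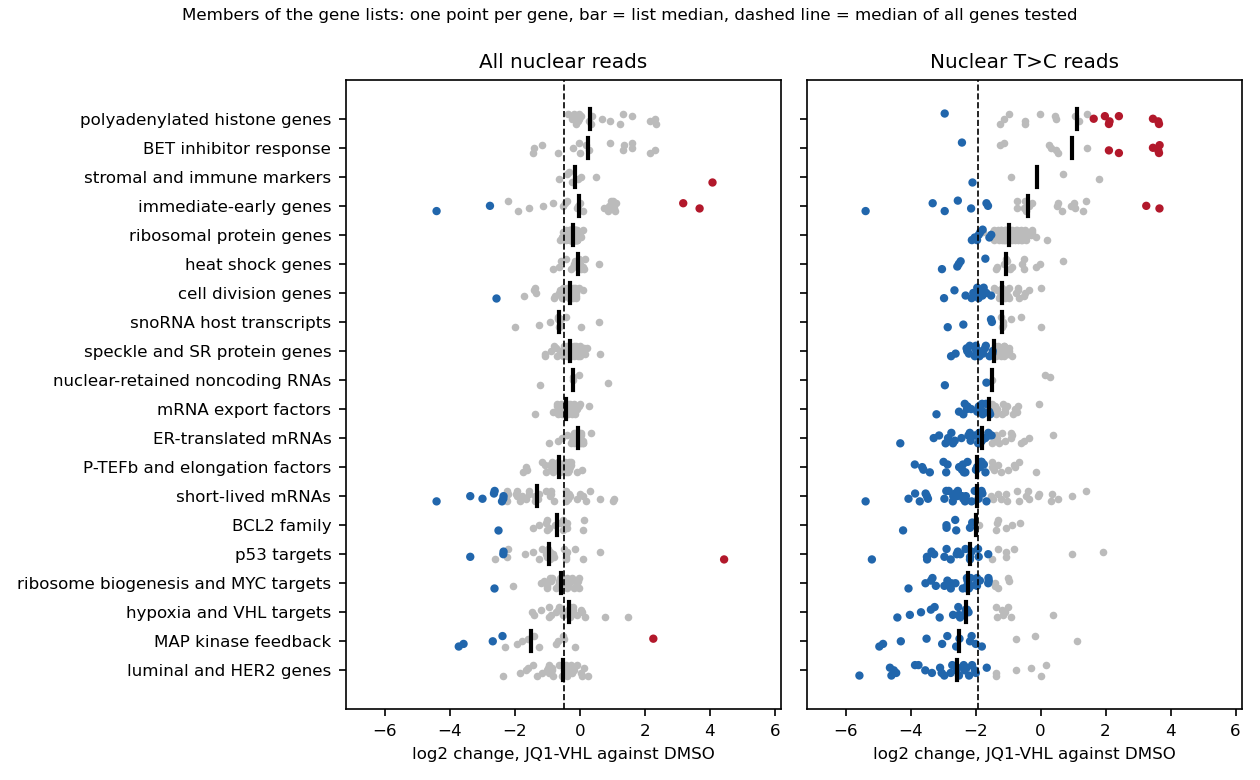
Log2 change, JQ1-VHL over DMSO, of each member of the 20 gene lists, for all reads (left) and T>C reads (right); points are genes, red where higher and blue where lower with an adjusted p under 0.05, the bar is the list median and the dashed line the median of all genes tested (-0.48 and -1.92). All 20 polyadenylated histone genes lie above the all-gene median in all reads, and 19 of 20 do in T>C reads, while the luminal and MAP kinase feedback lists have medians below it.

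Against the parent inhibitor JQ1 in the same fraction and for the same time, JQ1-VHL differs by the added VHL ligand; doses are not given. In all reads 19 genes were higher (0.132%) and 24 lower (0.166%) in JQ1-VHL nuclei than in JQ1 nuclei, 0.298% in all, with the median gene at -0.04. These were 81 higher and 501 lower with median-ratio scaling, and 300 and 1013 with the replicate block. MYC averaged 25.3 in JQ1-VHL nuclei and 233 in JQ1 nuclei, a log2 difference of -2.99 (95% interval -4.39 to -1.59, adjusted p = 0.0277). SOX9 averaged 53.9 in JQ1-VHL nuclei and 397 in JQ1 nuclei, differing by -2.73 (95% interval -4.03 to -1.43, adjusted p = 0.0325). TP53AIP1 was higher in JQ1-VHL nuclei, by 3.03 (95% interval 1.73 to 4.33, adjusted p = 0.0109), and THEMIS by 3.37 (95% interval 2.09 to 4.64, adjusted p = 0.00398). In T>C reads 40 genes were higher (0.332%) and 1563 lower (13%), 13.3% in all, with the median gene at -1.17. These were 169 and 233 with median-ratio scaling, and 87 and 3676 with the replicate block. HEXIM1 had a T>C mean of 95.9 in JQ1-VHL nuclei and 978 in JQ1 nuclei, a log2 difference of -3.34 (95% interval -4.66 to -2.01, adjusted p = 0.000414). JQ1 nuclei differed from DMSO nuclei by 0.92 (95% interval -0.41 to 2.24, adjusted p = 0.548). JQ1 nuclei had 3 genes higher (0.0208%) and 7 lower (0.0486%) than DMSO nuclei in all reads, 0.0694% in all, and 15 higher (0.124%) and 276 lower (2.29%) in T>C reads, 2.41% in all. BBC3 differed from JQ1 by -3.95 (95% interval -5.37 to -2.54, adjusted p = 0.000118) and ELL2 by -3.48 (95% interval -4.86 to -2.09, adjusted p = 0.000445). TEX14 in all reads did not pass, at -1.44 (95% interval -2.83 to -0.06, adjusted p = 1). In T>C reads DHRS2 did not pass either, at -0.84 (95% interval -2.41 to 0.74, adjusted p = 0.421), nor did BRD2, at -1.35 (95% interval -2.74 to 0.04, adjusted p = 0.159). The same held for H2BC21, at 1.64 (95% interval 0.32 to 2.97, adjusted p = 0.077). These intervals do not show that the compounds act alike. Lower in T>C reads of JQ1-VHL nuclei than of JQ1 nuclei were 14 of 25 p53 targets, 18 of 44 short-lived mRNAs and 9 of 22 hypoxia genes, while of 20 histone genes 0 were called (limma; 4 at an unadjusted p under 0.05). JQ1 and DMSO libraries enter these comparisons and those above, so they share libraries.

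Against IBET151-VHL, the other VHL compound, 0 of 14417 genes passed in all nuclear reads (limma; 136 at an unadjusted p under 0.05). There was 1 higher and 0 lower after median-ratio scaling and 72 higher and 0 lower with the replicate block. T>C reads were not tested between these compounds. The T>C share was 1.72%, 1.33% and 1.10% in IBET151-VHL nuclei, against 1.92%, 2.36% and 2.41% in JQ1-VHL nuclei. A lack of calls in all reads does not show that the compounds act alike. The log2 difference, JQ1-VHL over IBET151-VHL, was -0.16 (95% interval -1.56 to 1.25, adjusted p = 1) for MYC, -0.19 (95% interval -1.76 to 1.38, adjusted p = 1) for EGR1 and 0.93 (95% interval -0.39 to 2.25, adjusted p = 1) for SPRY1. In the cytoplasm of the same treatments JQ1-VHL changed MYC by -4.29 (adjusted p = 5.33e-05), SPRY1 by -3.61 (adjusted p = 3.2e-06), GATA3 by -1.85 (adjusted p = 1.66e-05) and EGR1 by 3.90 (adjusted p = 0.00129). H2BC21 and H2BC4 stood there at 0.65 (adjusted p = 0.0522) and 0.70 (adjusted p = 0.246), neither called, and DRC1 at 3.17 (adjusted p = 0.000496). Of 12470 genes tested in the cytoplasm 52 were higher (0.417%) and 1556 lower (12.5%), 12.9% in all. The nuclear change minus the cytoplasmic change was tested itself, and 0 genes passed (limma; 316 at an unadjusted p under 0.05). There were 53 higher and 4 lower after median-ratio scaling and 3 and 3 with the replicate block. It was -0.12 (95% interval -1.98 to 1.73, adjusted p = 1) for MYC, 1.67 (95% interval -0.14 to 3.48, adjusted p = 1) for H2BC21 and 1.16 (95% interval -0.37 to 2.68, adjusted p = 1) for NEAT1.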

How the data were processed

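Human genes were measured by 3′ SLAM-seq in 28 libraries, of which the 6 nuclear libraries of JQ1-VHL and DMSO are compared here. Per the submitters' processing notes the tools were bcl2fastq, Trimmomatic 0.39, HISAT2, HTSeq and DESeq2, with builds GRCh37, hg19 and dm3 named without roles, and whether strand was used is not given in the sources used here. The authors deposited a table of all reads (16482 genes) and one of T>C reads (13029 genes) as signal values scaled to ERCC RNA. Each deposited signal value is a whole number of reads times 1 factor per library (within 0.001), which gave back the read counts. The 14 nuclear libraries hold 17851589 to 38658448 reads, which sets the precision of low genes. Counting intervals and floors (3 reads per library) cover counting error only.

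Genes reaching 10 in all reads, or 5 in T>C reads, in at least 2 libraries were tested with limma 3.58.1 (R 4.3.3) on log2(value + 1) over the 14 nuclear libraries, so fold changes of low genes are understated. The fit relative to the median gene used median-ratio factors from genes above 0 in every nuclear library, so the median of all genes tested need not lie at 0. T>C shares were tested for genes with at least 10 T>C reads in 2 libraries. Adjusted p-values (Benjamini-Hochberg, threshold 0.05) are from limma over all genes tested; sums and library shares had exact 2-sided permutation tests. The fits were tested on simulated data. edgeR 4.0.16 and DESeq2 1.42.0 on the recovered reads, other scalings, filters, pseudocounts, blocks and left-out libraries were alternatives.

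JQ1-VHL and DMSO libraries of the same replicate number deviated together in all reads (r across genes 0.220 to 0.350, and 0.204 to 0.298 after median-ratio scaling), so the numbers were taken to pair the libraries there. What a number means is not stated in the labels. The main fits hold the group only, and the pairing enters only the fits with the replicate block.

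Genes named are the 8 largest non-overlapping rises and falls in all and in T>C reads with a mean of at least 50 or 20 in the higher group, the 5 largest changes of share each way, the 3 members of each of 20 lists with the smallest p in either table, and a set of known response genes. Members and lists were chosen with earlier results of these data known. Symbols came from a gene-name table that matched 16069 IDs, and 477 genes are named by ID only. Promoters are from RefSeq.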

Additional observations from a re-analysis of the deposited data

How the results depend on the processing

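In all reads, 284 genes were called. The count was 6165 with the replicate block, 5909 with the run in the library numbering as a block, 5051 within the first 2 runs, 6100 with weights per library, and 137 to 412 with 1 library left out. edgeR called 325, DESeq2 326 and the limma fit on only the 6 libraries compared 195. Relative to the median gene, 1288 genes became 2901 with the replicate block, 2045 by DESeq2 with its own size factors, 3703 within the first 2 runs (an alternative chosen after seeing the data) and 636 to 1264 with 1 library left out. In T>C reads, 7444 became 3643 to 8103 with 1 library left out, 8998 with the replicate block, 6672 by edgeR and 7153 by DESeq2. It was 5231 with only the 6 libraries compared. Relative to the median gene, 1730 became 2916 by DESeq2 with its own size factors, 946 within the first 2 runs (also chosen afterwards) and 897 to 1353 with 1 library left out. For T>C shares, 2725 became 1617 with 0.1 reads added, 1620 with a filter 5 times higher, 5424 with the replicate block, 8620 with the run block, 8652 within the first 2 runs, 9001 with weights and 364 to 6946 with 1 library left out. With only the 6 libraries compared, 3672 shares were called. The cause of these moves was not tested.

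Against JQ1, 43 calls in all reads became 582 with median-ratio scaling and 1313 with the replicate block, and 1603 in T>C reads became 402 and 3763. Against IBET151-VHL 0 became 1 and 72, and nucleus minus cytoplasm 0 became 57 and 6. Leaving out 1 library moved the log2 difference of the summed values from -0.84 to 0.17 in all reads and from -1.89 to -0.85 in T>C reads, and that of the T>C share from -4.95 to -2.07 percentage points.

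Signs turned for FTX in all reads with weights per library (0.60), for NEAT1 T>C reads within the first 2 runs (-0.84), for MALAT1 T>C reads with the run block (-1.03) and within the first 2 runs (-1.44), and for the MALAT1 share within them (-0.85). Same-numbered libraries correlated at -0.00765 to 0.105 in T>C reads, where not every library correlated best with its own number, and at 0.0429 to 0.115 in shares, where each did. Since not every pair exceeded 0.1, no pairing was taken from the numbers in T>C reads or shares. Low T>C reads limit genes nearly silent in DMSO.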
